A study of Danio rerio with 2 samples.

Results

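miR-7, miR-219 and miR-190 are small families of miRNAs, and 5 of the 173 miRNAs in the small RNA profiles of zebrafish embryos belonged to them. They are listed as mir-7a, mir-7b, mir-219, mir-190 and mir-190b, and were picked by name because they were among the most reduced miRNAs in the Tbx5 morphant library. The difference between the libraries therefore chose them, and it is given below as a description and not as a result of a test. The NGS data comprised 1 library of Tbx5 morphants and 1 library of MO-Ct injected embryos, so no difference has a replicate check. Both were made from wild-type AB embryos injected at the 1-cell stage and collected whole at 48 hpf, with total RNA of 50 embryos per extraction. The sample labels give 1.5 ng of MO-Tbx5a for the morphants and 1.5 ng of MO-Ct for the controls. By the paper, the morphants received MO-Tbx5b as well as MO-Tbx5a, the controls received the same amount of MO-Ct, and the morphants were picked by hand for the heartstring (hts) phenotype. A morpholino binds a chosen transcript and transiently keeps it from being spliced or translated. Since small RNAs alone were sequenced, the transcripts of Tbx5 were not measured.

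A miRNA is cut from a hairpin precursor and guides repression of mRNAs that pair with its seed, the bases near its 5′ end. miR-7 is among the most conserved animal miRNAs and in vertebrates marks neuroendocrine cells of the brain, the pituitary and the pancreatic islets. miR-219 is best known from the oligodendrocyte lineage of mammals and zebrafish, where together with miR-338 it promotes the maturation of the myelinating cells. miR-190 is less well known; in mammals it lies in the gene of talin 2, and in rodent neurons it was reported to repress the neurogenic factor NeuroD.

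The deposited values are given in rpm, reads of a miRNA per 1000000 reads assigned to the listed miRNAs. Within their rounding all values corresponded to whole reads, 580312 in the library of the morphants and 1150157 in that of the controls. A single read thus stood for 1.72 rpm in the morphants and 0.869 rpm in the controls. The FC is the rpm of the morphants over that of the controls. Intervals are 95% Clopper-Pearson intervals; they cover counting error only, and PCR copies are not independent molecules. Of the 173 miRNAs, 162 were above 0 in both libraries, and the other 11 were at 0 in the morphants only. The typical FC of the 162 was slightly below 1, the median being 0.910 for the 107 miRNAs above 200 rpm in both. The miRNAs of the tissues of a whole embryo were present: muscle miR-206, neural miR-9 and sensory miR-182 had 143278, 210670 and 8884 rpm in the controls.

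The 5 miRNAs together held 0.355% of the reads of the MO-Ct library and 0.143% of those of the Tbx5 morphant library. All 5 were lower in the morphants, with intervals of the FC that excluded 1. Of the 162 miRNAs above 0 in both libraries 67.3% had a FC below 1 and 45.7% an interval wholly below 1. In the controls the 5 were ordered miR-219, miR-7a, miR-7b, miR-190b and miR-190, at places 43, 77, 99, 134 and 147 of 173 by level, and in the morphants they stood at places 69, 89, 124, 153 and 155. The order among the 5 was the same in both libraries. Neighbours in it had intervals that did not overlap in the controls, whereas in the morphants miR-190b and miR-190 could not be told apart. Whether fewer cells that make these miRNAs or less miRNA per cell underlies a lower level cannot be told apart in whole embryos.

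**Figure D1:**
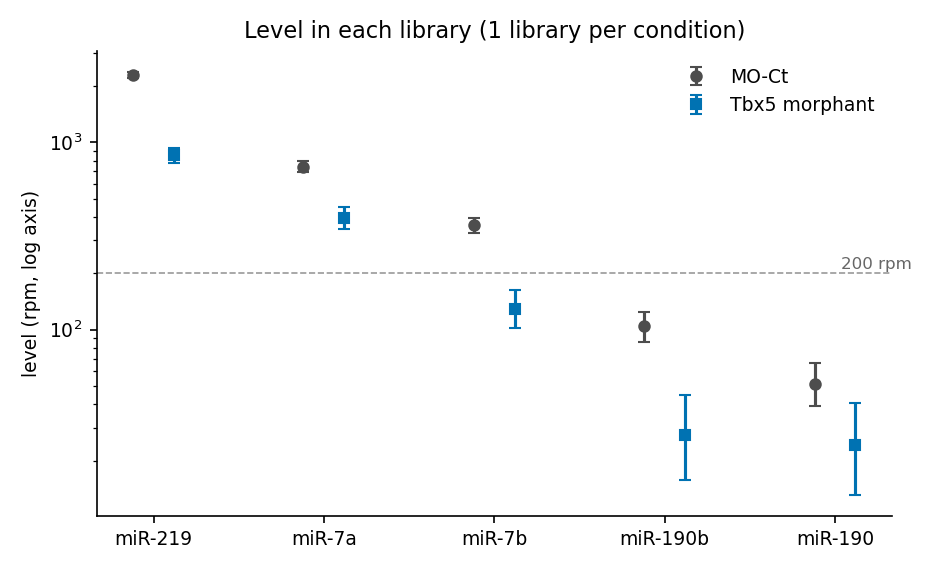
Level of each miRNA in the MO-Ct library (circles) and the Tbx5 morphant library (squares), in rpm on a log axis; bars are 95% counting intervals and the dashed line is the minimum of 200 rpm. Every miRNA is lower in the morphant library, and only miR-190 has intervals that meet, 39.1 to 66.2 rpm against 13.2 to 40.5 rpm. The miRNAs shown were picked for their lower level in the morphants, which favours such gaps. How many of all listed miRNAs have intervals that do not meet was not counted, so nothing is read from the gaps.

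Of the 5, miR-219 had the highest level in both libraries, though the cells of the embryo that made it were not identified. It had 2290 rpm in the MO-Ct library (95% interval 2204 to 2379) and 853 rpm in the Tbx5 morphant library (780 to 932), and these ranges lay far apart. The level in the controls would have given 1329 reads at the depth of the morphant library, and 495 were counted. The FC was 0.372 (0.338 to 0.410), a level 2.68 times lower (2.44 to 2.96). miR-143 and miR-454b, next to miR-219 by level in the controls, had FC of 1.07 and 0.765. The values join 3 hairpin loci of miR-219, so it was not seen which of them gave the reads. miR-338, its partner in the oligodendrocyte lineage, was rare, with 29 and 74 reads in the morphants and the controls. Its FC of 0.777 had an interval from 0.487 to 1.21, which included 1 and did not reach down to that of miR-219. Since miR-219 was picked for its low FC, nothing is read from that gap.

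miR-7a and miR-7b differed from each other in the size of the difference. miR-7a had 739.9 rpm in the MO-Ct library (691 to 791) and 396 rpm in the Tbx5 morphant library (347 to 451), from 851 and 230 reads. Its FC was 0.536 (0.461 to 0.620), the mildest of the 5. miR-7b had 361 rpm (327 to 397) and 129 rpm (102 to 162), from 415 and 75 reads, and a FC of 0.358 (0.276 to 0.459). The interval of miR-7b ended just under the start of that of miR-7a. At the depth of the morphant library the levels of the controls would have given 429 reads of miR-7a, against the 230 counted, and 209 reads of miR-7b, against 75. The share of miR-7 family reads named miR-7b was 32.8% in the controls (30.2 to 35.4%) and 24.6% in the morphants (19.9 to 29.8%). These are close relatives, and the annotation by the authors allowed 2 mismatches, so part of the reads may carry the name of the other form; this was not tested. The FC of the family, 0.477 (0.4200 to 0.541) from 305 and 1266 reads, does not depend on that division. miR-216b and miR-126, next to miR-7a by level, had FC of 0.830 and 0.886, and miR-222 and miR-101b, next to miR-7b, had 0.989 and 0.484.

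miR-190b and miR-190 were the rarest of the 5, under 200 rpm in both libraries. miR-190b had 104 rpm in the MO-Ct library (86.5 to 125) and 27.6 rpm in the Tbx5 morphant library (15.8 to 44.8), from 120 and 16 reads. Its FC of 0.264 (0.146 to 0.447) was the lowest of the 162 miRNAs above 0 in both libraries. That ranking leaves out the 11 miRNAs listed at 0 in the morphants. Among these, miR-365, next to miR-190 by level, had 59 reads in the controls and an upper limit of its FC of 0.128. For miR-190b, the level of the controls would have given 60.5 reads at the depth of the morphant library. miR-190 had 51.3 rpm (39.1 to 66.2) and 24.1 rpm (13.2 to 40.5), from 59 and 14 reads, and a FC of 0.4702 (0.242 to 0.853). Its interval excluded 1 but reached well across the 1.8-fold threshold, so at this depth the size of its difference was poorly fixed. Both had fewer than 30 reads in the morphants. The authors discarded sequences seen fewer than 30 times. Values below that were still listed in both libraries, 19 above 0 in the morphants and 14 in the controls. In the morphants no miRNA stood between 0 and 11 reads, whereas the controls went down to 6 reads. For miR-365 and miR-190 alike, the level of the controls would have given 29.8 reads in the morphants, and 0 and 14 were counted. How the filter acted on miR-190 and miR-190b was not tested, and their intervals do not cover it. With their reads summed, the miR-190 family had 51.7 rpm in the morphants and 156 rpm in the controls, a FC of 0.332 (0.218 to 0.491). The share of the family named miR-190b was 67.0% in the controls (59.6 to 73.9%) and 53.3% in the morphants (34.3 to 71.7%), ranges that overlapped.

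Among the 5 miRNAs, 10 pairs of FC can be formed, and the intervals overlapped in 7 of them. The 3 pairs that did not overlap all held miR-7a, against miR-219, miR-7b and miR-190b. miR-219, miR-7b and miR-190b were therefore lower by amounts that counting error does not separate, and miR-190 could not be placed among the others.

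With the thresholds of the study, more than 200 rpm, applied here to the MO-Ct library, and a FC of 1.8 or more up or down, miR-219, miR-7a and miR-7b passed as lower. Of all 116 miRNAs above that minimum 7 were lower by this rule, 6.03%, and 0 were higher in the values as deposited. That 0 depends on the scaling. miR-146a and miR-21, named after their values were seen, had FC of 1.68 and 1.67. Dividing by the median FC of 0.910 takes both past 1.8-fold higher. A minimum set on the controls leaves out miRNAs that are higher in the morphants from a low level in the controls. miR-34, named after its values were seen, had 89.55 rpm in the controls and 246 rpm in the morphants, a FC of 2.75. Without a minimum all 5 were at least 1.8-fold lower, as were 16 of the 162 miRNAs above 0 in both libraries, 9.88%, while 3 were higher, 1.85%. The 11 miRNAs listed at 0 in the morphants are left out of these shares. Since this difference chose the 5, nothing is read from these counts. The list that the paper gives for its thresholds differs. It also holds miRNAs that were higher. Among the lower ones, the paper followed up miR-219 and miR-7b as well as miR-190b. With 104 rpm in the MO-Ct library and 27.6 rpm in the Tbx5 morphant library, miR-190b was below 200 rpm in both. The paper reports that miR-219, miR-190b, miR-7a and miR-7b rose when Tbx5 was overexpressed in mouse cardiac cell lines. In its Tbx5a morphants, co-injected miR-219 was without effect, and miR-7b and miR-190b made the defects worse. The intervals of miR-219, miR-7b and miR-190b lay wholly below 0.556, the FC of a 1.8-fold decrease, and those of miR-7a and miR-190 reached across it. This was not particular to the 5. Among miRNAs listed at 0 in the morphants, miR-365 and miR-722 had upper limits of 0.128 and 0.234. Picking the 5 for a low FC favours such intervals, so nothing is read from them. In the range from 50 to 200 rpm in the controls, which holds miR-190b and miR-190 and was set after their values were seen, 10 of 32 miRNAs were at least 1.8-fold lower, 31.2%, with 1 of them listed at 0 in the morphants.

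**Figure D2:**
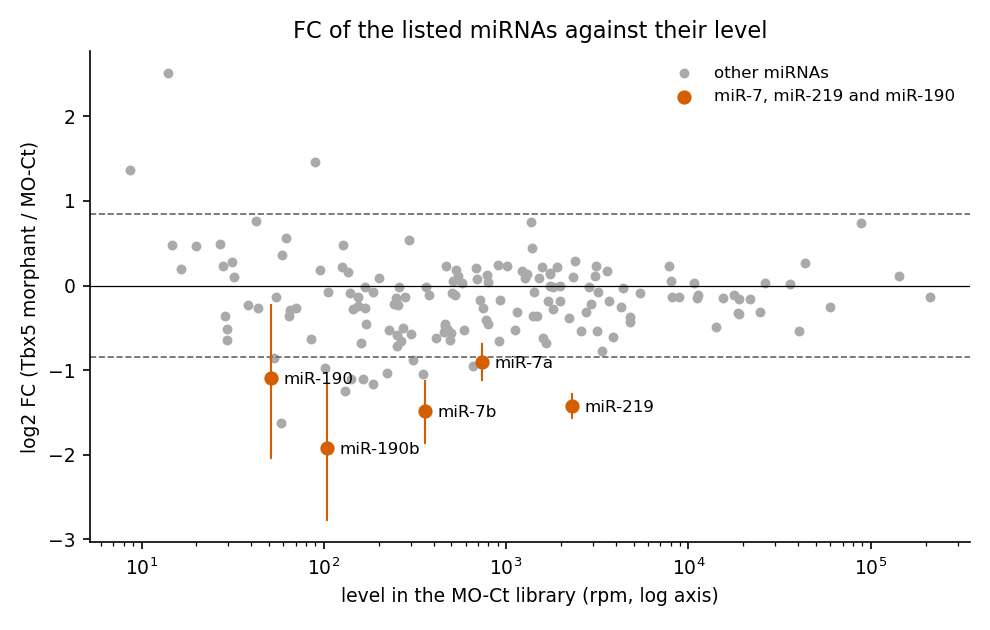
log2 FC (Tbx5 morphant over MO-Ct) against the level in the MO-Ct library in rpm on a log axis, for the 162 miRNAs above 0 in both libraries; the 5 miRNAs are named and carry 95% counting intervals, and dashed lines mark 1.8-fold. miR-219 stands at 2290 rpm with a log2 FC of -1.42, the lowest of the miRNAs that are more abundant than miR-7b, while miR-190 and miR-190b lie at the left, among the rare miRNAs.

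In the order of FC over these 162 miRNAs, miR-190b was the lowest, miR-7b the third, miR-219 the fourth, miR-190 the ninth and miR-7a the fourteenth. miR-107b, which came second and was named after its values were seen, rested on 11 and 67 reads. With at least 30 reads asked of each library, 142 miRNAs remained, miR-7b and miR-219 had the lowest FC of them, and miR-190 and miR-190b were left out. Among the 142, miR-219 and miR-7b were each other's nearest neighbours in FC over these 2 libraries, and both were the nearest to miR-190b. From other families, the nearest were miR-301a with 0.4200 (0.277 to 0.618) beside miR-219 and miR-7b, miR-15b with 0.542 (0.428 to 0.680) and miR-19a with 0.516 (0.439 to 0.604) beside miR-7a, and miR-130a with 0.465 (0.318 to 0.665) and miR-451 with 0.464 (0.326 to 0.647) beside miR-190. A likeness of FC over only 2 libraries is a single number, and it says nothing of shared function.

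Other miRNAs of the nervous system did not form a single group in direction. Of 10 families known from neurons or neural progenitors 9 were listed, in 12 entries that all had at least 30 reads in each library. The FC was below 1 in 8 of the 12, and 1 of them was at least 1.8-fold lower. Of the 142 miRNAs with as many reads, 98 were below 1 and 12 at least 1.8-fold lower. These counts were therefore not particular to the neural list. The median log2 FC of the 12 was -0.24, against -0.16 for the 142 miRNAs covered alike. miR-153a, a neuronal miRNA, was the lowest, with 82.7 rpm in the morphants and 186 rpm in the controls, a FC of 0.445 (0.318 to 0.610). Its relatives miR-153c and miR-153b had 0.652 (0.541 to 0.783) and 0.672 (0.540 to 0.831), and miR-124, the most neuron-specific miRNA of vertebrates, had 0.683 (0.574 to 0.810). At the other end were miR-128 with 1.18 (1.07 to 1.30), miR-129 with 1.45 (1.23 to 1.71) and miR-132, which neuronal activity induces in mammals, with 1.70 (1.10 to 2.62) from 42 and 49 reads. miR-9 of neural progenitors, the most abundant of the list, had 191730 and 210670 rpm, a FC of 0.9101 (0.904 to 0.917), which came to just above 1 when every FC was divided by the median FC. The intervals of 7 of the 12 lay below 1 and those of 3 above it, against 70 and 27 of the 142.

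The miRNAs of islets, neuroendocrine and sensory cells had FC closer to 1 than those of miR-7a and miR-7b. Because miR-7a and miR-7b were picked for their low FC, that choice favours such a gap, and nothing is read from it. miR-375, the miRNA of pancreatic islets and pituitary cells, had 349.8 rpm in the morphants and 379 rpm in the controls, a FC of 0.923 (0.777 to 1.09). The sensory miRNAs miR-182 and miR-183, made from a common precursor with miR-96, had FC of 0.908 (0.877 to 0.940) and 0.9099 (0.877 to 0.944), and miR-96 had 0.676 (0.571 to 0.796). The intervals of these 4 lay above that of miR-7b, 0.276 to 0.459, but the interval of miR-96 overlapped that of miR-7a, 0.461 to 0.620. After rescaling, miR-375 and miR-183 were at or above 1, and the side of 1 on which miR-182 lay depended on the scaling. The FC of miR-183 was itself the median FC, so dividing by the median set it to 1 by construction. The median log2 FC of the list was -0.14.

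**Figure D3:**
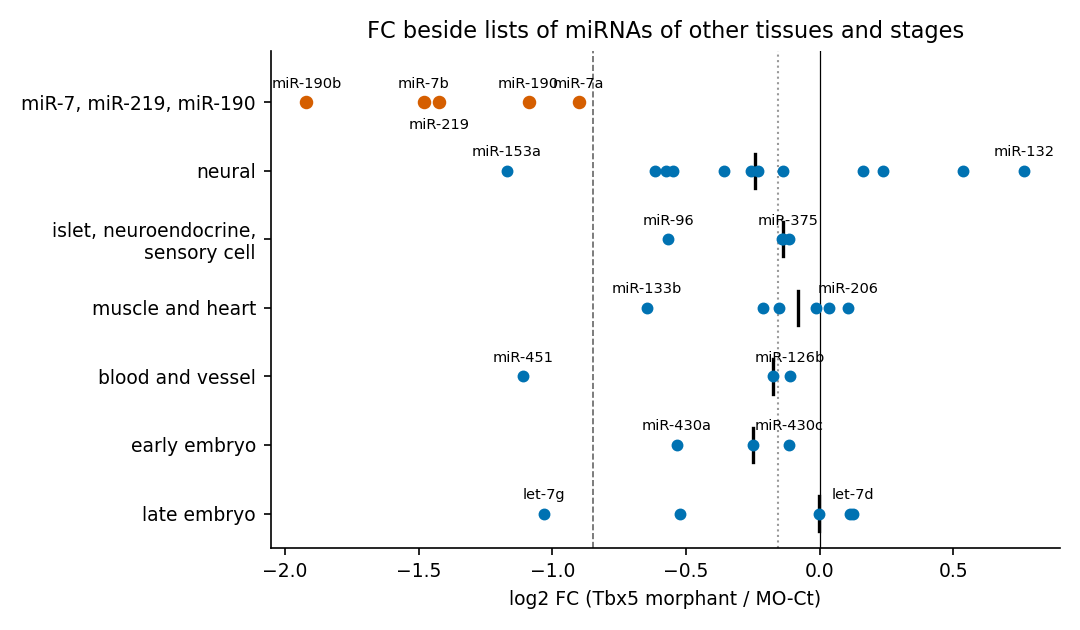
log2 FC (Tbx5 morphant over MO-Ct) of the 5 miRNAs (top row) and of miRNAs with at least 30 reads in each library in 6 lists of other tissues and stages; black bars are list medians, the dashed line a 1.8-fold decrease and the dotted line the median of 142 miRNAs. Only miR-153a, miR-451 and let-7g of the lists lie past the dashed line.

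Some miRNAs that mark other tissues or a stage also differed between the libraries, and their part in the lower levels of miR-7, miR-219 and miR-190 was not tested. The muscle and heart miRNAs, 6 entries, ran from 0.640 (0.538 to 0.757) for miR-133b to 1.08 (1.07 to 1.09) for miR-206, their most abundant member, and their summed rpm had a ratio of 1.07 between the libraries. Of the 5 blood and vessel entries 3 had enough reads: the erythroid miR-451 had 75.8 and 163 rpm, a FC of 0.464, while the endothelial miR-126 and miR-126b had 0.886 (0.782 to 1.00) and 0.927 (0.801 to 1.07). The miR-430 family, which clears maternal mRNAs in the early embryo and declines afterwards, had 94444 rpm in the morphants and 117696 rpm in the controls in sum. Its entries had FC of 0.691 for miR-430a, 0.842 for miR-430b and 0.923 for miR-430c, the last of which came to above 1 after rescaling, and miR-430j was listed at 0 in the morphants. The let-7 family, which accumulates late in development, had 6464 rpm in the morphants and 6348 rpm in the controls in sum. Its entries ran from 0.4896 (0.366 to 0.647) for let-7g to 1.09 (0.976 to 1.22) for let-7d, the most abundant, let-7a, had 1.08 (1.02 to 1.15), and let-7f was listed at 0 in the morphants.

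The 5 entries name 9 hairpin loci, and all 9 were found by name or listed synonym in the GRCz12tu gene table of RefSeq, where mir-7b is a synonym of dre-mir-7ba and mir-190 of dre-mir-190a. The values carry no coordinates, so only names and neighbours are given. All 9 were single hairpins, with 0 other annotated miRNAs within 10 kb. miR-190 lay within the annotated spans of tln2b, a talin, and of etfa, a subunit of the electron transfer flavoprotein. miR-7b lay within hnrpkl, related to the RNA-binding protein hnRNP K, whose gene holds a miR-7 in mammals too, and within the uncharacterised protein-coding gene LOC141385623. Of the 3 loci of miR-7a, mir-7a-1 lay within det1 and a long non-coding RNA gene, next to the neurotrophin receptor gene ntrk3a, while mir-7a-2, between kif7 and mrps11, and mir-7a-3, next to fem1a, lay in no other gene. The receptor gene ntrk2b was likewise the neighbour of miR-7b on one side, with gnaq on the other. The 3 loci of miR-219 lay in no other gene, with mir-219-1 between urm1 and cercam and mir-219-3 next to ppt2b. miR-190b lay within a long non-coding RNA gene. Thus 3 of the 9 loci lay within protein-coding genes. Strand was not compared, so a gene whose span holds a hairpin need not be its host. The levels of these enclosing and neighbour genes were not measured in small RNA libraries.

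Because the rpm of a library sum to the same total, each FC was also computed with other scalings and with pseudocounts. miR-219 then lay between 0.373 and 0.419, miR-7b between 0.360 and 0.403 and miR-190b between 0.271 and 0.329, all past 1.8-fold. miR-7a moved to 0.589, 0.603 and 0.5904 when rescaled by the median FC, by a trimmed mean of log ratios and without the 3 most abundant miRNAs, and so was no longer 1.8-fold lower. miR-190 reached 0.557 with a pseudocount of 10 rpm, just short of 1.8-fold.

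**Figure D4:**
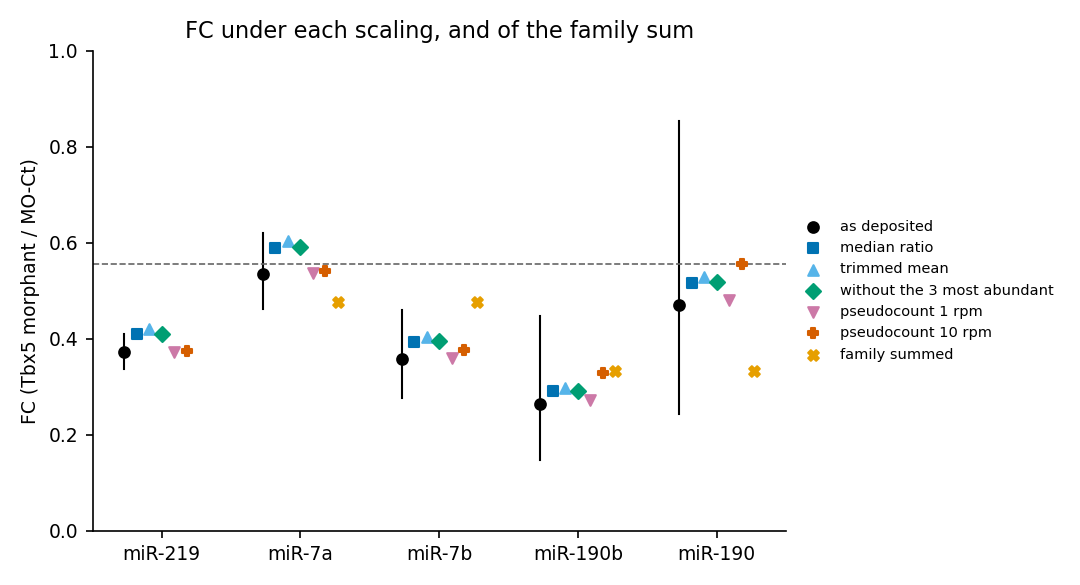
FC (Tbx5 morphant over MO-Ct) of each miRNA as deposited and under each way of scaling the rpm, beside the FC of its whole family (crosses, absent for miR-219); vertical lines are the 95% counting intervals of the deposited values and the dashed line is a 1.8-fold decrease. miR-7a lies on both sides of the dashed line, between 0.536 and 0.603, while miR-219 stays between 0.372 and 0.419.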

How the data were processed

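Total RNA was taken from embryos pooled per condition, and small RNA libraries were prepared with the v1.5 protocol and sequenced on an Illumina GAIIx. Per the supplementary methods, the authors worked with unique sequences of 18 to 33 nt obtained after quality filtering and adaptor removal. Those seen fewer than 30 times were discarded, and the rest were assigned to zebrafish miRNAs of miRBase 16.0 with a tolerance of 2 mismatches and of 2 extra bases on either side. The deposited values are rpm, 1 per miRNA and library, with loci of identical name joined. Genome build: not given in the sources used here.

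Reads were recovered as the smallest total between 50000 and 3000000 for which all 173 values were whole within their rounding, 0.005 rpm, and summed to it. A count of 3 reads, the limit that a true 0 allows, was 5.17 rpm in the Tbx5 morphant and 2.61 rpm in the MO-Ct library. With 1 library per condition no test, count model included, was made. The members and the lists of other miRNAs were chosen with earlier results of these data known; list entries needed 30 reads in each library. The miRNAs named are the members, those nearest to them in FC or level, and the lowest, highest and most abundant of each list; miR-124, miR-128, miR-129, miR-153b, miR-153c, miR-126, miR-182, miR-183, miR-375, miR-430b, miR-430j and let-7f were named beyond that rule after their values were seen, as was miR-338, a list of 1. Seed sequences and promoters were not analysed here. The alternatives were other minimum levels and folds, rescaling by the median FC of miRNAs above 200 rpm in both libraries or by the mean log ratio after trimming (30% by ratio and 5% by level at each end), rpm without the 3 most abundant miRNAs, pseudocounts of 1 and 10 rpm, and family sums. Recovery of the totals, coverage of the intervals and the 1.8-fold call were checked on simulated pairs of libraries. The simulated pairs had no filter on rare sequences. Rescaling, pseudocounts, lists and family sums were not simulated. SciPy 1.17.1, pandas 2.3.3 and NumPy 2.4.6 were used in Python 3.11.15, and figures were drawn with Matplotlib 3.10.9.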

Additional observations from a re-analysis of the deposited data

How the results depend on the processing

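No paired analysis was possible because there was a single library of each kind, so no replicate could be left out either. The thresholds themselves set the counts: 3 of the 5 miRNAs passed with the minimum of 200 rpm in the MO-Ct library, 4 with 100 rpm and 5 with no minimum. The count was 2 with the minimum in the Tbx5 morphant library or in both, at 2-fold, and under each of the 3 rescalings. Of all miRNAs, 7 passed as lower, against 3 with the minimum in the Tbx5 morphant library or in both, 13 with 100 rpm, 16 with no minimum, 16 at 1.5-fold and 4 at 2-fold, and 4 under each of the median rescaling, the trimmed mean and the total without the 3 most abundant miRNAs. Over all miRNAs, those that were higher were not recounted under the alternatives. Of 29 alternatives for the FC of the 5 miRNAs, 26 lay inside the counting interval and 3 outside it, and 0 reached 1. None of them could have, since a pseudocount or a family sum cannot carry these FC across 1 and the rescalings were too small, so the kept direction is no check. The 3 were miR-219 at 0.419 after trimming and 0.4105 without the 3 most abundant, and miR-7b at 0.477 with the family summed. List medians near 0 changed sign with the scaling. In log2 FC, the islet, neuroendocrine and sensory list came to 0.033 after trimming and 0.0022 without the 3 most abundant, the muscle and heart list to 0.055 with the median FC and 0.090 with the trimmed mean, and the late embryo list to 0.13, 0.17 and 0.14 under the 3 scalings in turn, the median FC, the trimmed mean and the total without the 3 most abundant. The neural list stayed below 0, at -0.11, -0.07 and -0.11. So did the early embryo list, at -0.11, -0.08 and -0.11, and the blood and vessel list, at -0.038, -0.0035 and -0.034. Except where the threshold sets the count, the cause was not tested. Depth limits miR-190 and miR-190b most, with 14 and 16 reads in the morphants.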
